A study of Mus musculus with 12 samples.

Results

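Esculetin is a plant coumarin, and its effect on 10 genes of the p53 pathway and of cell cycle arrest was followed here in 2 systems: mouse liver and a macrophage line. The protein p53 is a transcription factor that is held at a low level by Mdm2, a ubiquitin ligase that marks it for degradation, and Mdm2 is itself a p53 target, which closes a negative feedback loop. When p53 is active it raises inhibitors of proliferation, above all p21, the product of Cdkn1a, which blocks cyclin-dependent kinases (CDKs), and genes of apoptosis such as Bbc3. A related CDK inhibitor, p27, is the product of Cdkn1b and is controlled largely through FOXO factors and protein turnover rather than by p53. The 10 genes were chosen by name: Trp53, which encodes p53, with Mdm2, Cdkn1a, Cdkn1b, Ccng1, Plk2, Btg2, Gadd45a, Bbc3 and Zmat3. All 10 were among the 55357 gene identifiers of each count table, and all 10 passed the filter on low counts in both systems.

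RNA-seq libraries fell into 4 groups of 3. Livers came from wild-type male C57BL/6J mice that received esculetin at 90 mg/kg/d, or only the 2.5% Tween-80 it was dissolved in, by gavage over 7 days. Their feed was a 10 kcal% fat diet on the first 4 days and a 60 kcal% fat diet on the last 3. The cells were RAW264.7, 1 transformed mouse macrophage line, exposed for 24 h to DIL-labelled oxidized low-density lipoprotein (DIL-oxLDL) at 25 µg/mL with esculetin at 40 µg/mL or with its solvent DMSO. The oxLDL was thus present in both cell groups and the high-fat diet in both liver groups, and no group without them was analysed here. Each liver library pooled a pair of mice. The labels do not say whether the 3 cell libraries of a group were separate cultures, so the p-values in the cells may measure technical spread only.

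Levels are given as CPM, which is the count per 1000000 counts of the library after scaling by the trimmed mean of M-values (TMM). Library totals ran from 13752842 to 20001959 counts in the cells and from 14659876 to 20346460 in the liver, and the 3 esculetin cell libraries, with 13752842, 14954496 and 18801094 counts, overlapped with the controls, the lowest of which held 18284706. All 7 macrophage markers examined were detected in every cell library, while the 6 hepatocyte markers together stayed under 1 CPM, and the liver libraries held all 6 hepatocyte markers. The summed level of the macrophage markers in the cells was 2220 to 2386 CPM in the controls and 4908 to 7409 CPM with esculetin, and its part in the results below was not tested. The markers did not all move: Lyz2 (600 to 683 against 2584 to 4704 CPM) and Csf1r (791 to 882 against 1517 to 1760 CPM) made up most of the sum's difference. Adgre1 (32.5 to 35.4 against 40.2 to 44.2 CPM) and Itgam (23.2 to 25.5 against 34.8 to 45.9 CPM) were also higher in every esculetin library. Cd68, Ptprc and Fcgr1 had overlapping groups. In the liver the same sum was 144 to 187 CPM in the controls and 148 to 161 CPM with esculetin. There, too, the markers did not all move. Csf1r (50.8 to 57.6 against 42.8 to 46.1 CPM), Adgre1 (16.3 to 17.5 against 11.9 to 15.0 CPM) and Cd68 (12.7 to 16.3 against 9.38 to 12.2 CPM) were lower in every esculetin library. Lyz2, Itgam, Ptprc and Fcgr1 had overlapping groups. In bulk RNA, fewer cells of a type and less RNA per cell cannot be told apart.

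In the oxLDL-treated cells, 5 of the 10 genes rose with esculetin (Mdm2, Plk2, Ccng1, Btg2 and Cdkn1a), 4 fell (Bbc3, Zmat3, Cdkn1b and Trp53), and Gadd45a was not called. A gene was called at a Benjamini-Hochberg adjusted p-value under 0.05 in the quasi-likelihood test of edgeR, adjusted over all 13277 tested genes. That rule called 57.7% of all tested genes in the cells, 28.7% as higher and 29.0% as lower, so calls were common and the count alone does not set these genes apart. The groups did not overlap for 9 of the 10 genes, 5 higher and 4 lower, against 64.1% of all tested genes (31.0% higher and 33.1% lower). The study's own kind of criterion (limma-voom, unadjusted p under 0.05 and fold over 1.5), as run here, called 2551 genes higher and 2490 lower, 38.0% of all tested genes. Both counts are larger than those the paper reports for these cells, and the reason was not tested. Of the 10 genes, 3 rose and 4 fell by it, and Cdkn1a and Btg2 were not among them. The canonical p53 targets therefore did not move as 1 block: Mdm2, Plk2 and Ccng1 rose while Bbc3 and Zmat3 fell.

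**Figure D1:**
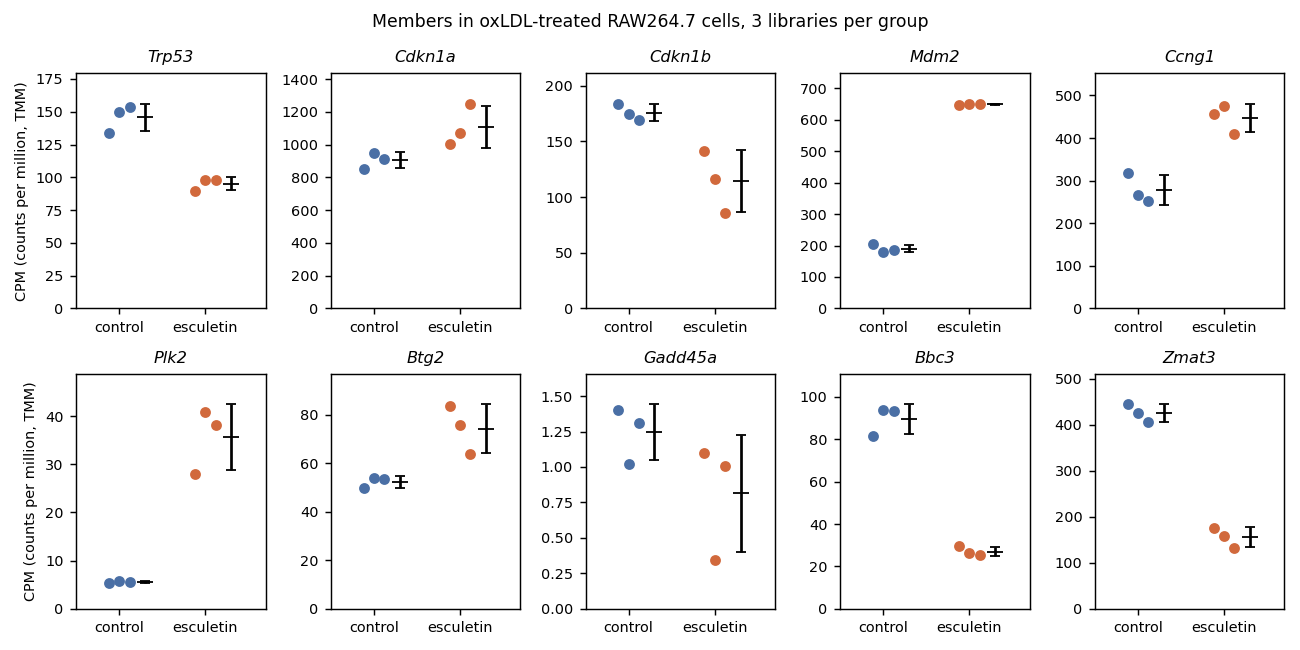
CPM (y axis, from 0, scaled by trimmed mean of M-values) of the 10 genes in the RAW264.7 libraries, 3 controls in blue and 3 esculetin libraries in orange; the black marks give mean ± SD. Only in the Gadd45a panel do the points of the groups overlap, and the 3 Mdm2 points with esculetin, 647 to 650 CPM, lie over the control points of 180 to 204 CPM.

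The regulator and its ligase moved in opposite directions. Mdm2 measured 204, 180 and 187 CPM in the control cells and 647, 648 and 650 CPM in the esculetin cells. Every esculetin library lay more than 3 times above every control library, and the spread among the esculetin libraries (SD 1.29 CPM, n = 3) was smaller than among the controls (SD 12.4 CPM, n = 3). The log2 fold change was 1.77 (SE 0.08), a 3.41-fold rise with an adjusted p of 8.74e-08. Trp53 measured 134, 149 and 154 CPM in the controls and 89.5, 98.1 and 98.0 CPM with esculetin. All 3 esculetin libraries were below all 3 controls, with a log2 fold change of -0.61 (SE 0.09) and an adjusted p of 0.000118.

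Mdm2 lies on the minus strand of chr10:117524780-117546730 in the build GRCm39. The promoter at its gene start is shown because Mdm2 had the smallest p-value of the 10. Whether p53 acts on Mdm2 through this stretch was not tested, and the rest of the gene is not shown. The RefSeq window of 300 bases (GRCm38.p6, chr10:117710709-117711008, minus strand, 250 bases before the gene start to 50 after) holds a single copy of the 10-base p53 motif, given in capitals. A single motif was also in 8.36% of all windows. The search for paired p53 motifs described below found no pair for Mdm2.
Mdm2 promoter: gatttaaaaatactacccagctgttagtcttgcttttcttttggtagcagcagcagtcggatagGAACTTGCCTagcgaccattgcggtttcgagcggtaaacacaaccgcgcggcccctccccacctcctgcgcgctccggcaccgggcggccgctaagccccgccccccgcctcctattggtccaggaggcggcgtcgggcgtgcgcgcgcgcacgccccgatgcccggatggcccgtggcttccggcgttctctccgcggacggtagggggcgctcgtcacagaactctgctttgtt

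Among 20 tested genes that regulate p53, a list that also holds Trp53 and Mdm2, 4 rose, 5 fell and 11 were not called. The share called was 45%, against 57.7% of all tested genes, and the median log2 fold change was 0.00 against -0.01. Rpl11, a ribosomal protein known to bind Mdm2, went from 588 ± 18.7 CPM in the controls to 365 ± 6.92 CPM with esculetin (SD, n = 3) and was called lower (log2 -0.69, edgeR adjusted p = 2.03e-05). Crebbp, an acetyltransferase and coactivator of p53, rose from 40.5 ± 1.23 to 57.0 ± 0.868 CPM (log2 0.49, edgeR adjusted p = 0.000503). Chosen after its values were seen because it is the partner of Mdm2, Mdm4 fell from 290 ± 46.9 to 180 ± 57.5 CPM (log2 -0.68, edgeR adjusted p = 0.00993).

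The CDK inhibitors p21 and p27 also went opposite ways. Cdkn1a measured 852, 951 and 913 CPM in the control cells and 1001, 1070 and 1248 CPM with esculetin. The lowest esculetin library was above the highest control, but by little: the rise was 1.22-fold (log2 0.29, SE 0.10), with an adjusted p of 0.0307. This call was lost in 8 of 15 alternatives, among them leaving out any 1 of the 3 controls, the second esculetin library or the third, where the highest adjusted p was 0.0938. An antisense gene, Dino, shares 8.34% of the exon bases of Cdkn1a, and its reads cannot be told apart without strand. Cdkn1b measured 184, 175 and 169 CPM in the controls and 141, 116 and 85.9 CPM with esculetin. Here the groups did not overlap, with a log2 fold change of -0.62 (SE 0.14) and an adjusted p of 0.00328. The esculetin libraries were the more scattered (SD 27.6 against 7.44 CPM), and the highest and lowest of them lay further apart than the highest lay from the controls.

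The site below is shown because Cdkn1a is the best known p53 target. It was found by a search for 2 copies of the 10-base p53 motif, 0 to 13 bases apart, with at most 1 mismatch over 20 positions, within 5000 bases of the start of the canonical transcript (GRCm39, GENCODE). It lies at chr17:29309902-29309921 on the plus strand, 2827 bases before that start and just before the annotated gene, chr17:29309936-29319701, and both copies, in capitals, abut without a spacer and hold 1 mismatch.
Cdkn1a: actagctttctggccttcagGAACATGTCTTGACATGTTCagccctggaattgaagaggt

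Of the 7 CDK inhibitors of the CIP/KIP and INK4 families, 4 were tested in the cells, and Cdkn1a was the only 1 that was called higher. Cdkn2c, which encodes the CDK4 and CDK6 inhibitor p18, measured 33.1, 34.4 and 37.0 CPM in the controls and 9.95, 9.34 and 7.58 CPM with esculetin, a log2 fold change of -1.97 (SE 0.13, adjusted p = 6.02e-07). Cdkn2d, which encodes p19-INK4d, measured 72.7, 75.6 and 82.0 CPM against 42.0, 33.7 and 31.8 CPM, a log2 fold change of -1.10 (SE 0.11, adjusted p = 1.15e-05). Both sets of esculetin libraries were fully below the controls. Cdkn1c, Cdkn2a and Cdkn2b had 0 counts in all 6 cell libraries, which allows up to 0.146 to 0.220 CPM per library (3 counts, counting error only).

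Genes of p21 and p27 turnover and transcription were called in both directions, 6 higher and 8 lower of 18 tested (median log2 fold change 0.11). The share called was 77.8%, against 57.7% of all tested genes. Skp2, the F-box protein that targets p27 for degradation, fell from 47.4 ± 2.47 to 23.8 ± 2.13 CPM (log2 -0.997, edgeR adjusted p = 1.59e-05). Cks1b, the cofactor Skp2 needs for p27, fell from 95.1 ± 4.85 to 29.1 ± 2.54 CPM (log2 -1.71, edgeR adjusted p = 1.89e-07). The scaffold of the same ligase, Cul1, rose from 36.4 ± 3.43 to 91.6 ± 8.08 CPM (log2 1.33, edgeR adjusted p = 1.72e-06). Foxo3, a transcription factor of Cdkn1b, fell from 321 ± 11.8 to 141 ± 6.49 CPM (log2 -1.19, edgeR adjusted p = 6.44e-07).

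Plk2, Ccng1, Btg2 and Gadd45a are antiproliferative p53 targets that act beside p21. Plk2, a polo-like kinase induced by stress, showed the largest fold change of the 10, from 5.44, 5.81 and 5.55 CPM in the controls to 28.0, 40.9 and 38.2 CPM with esculetin. The groups were far apart, with a 6.38-fold rise (log2 2.67, SE 0.16) and an adjusted p of 2.68e-07. Ccng1, the cyclin G1 gene, whose product takes part in the control of Mdm2, measured 318, 266 and 251 CPM against 456, 474 and 410 CPM. All esculetin libraries exceeded all controls, a 1.61-fold rise (log2 0.68, SE 0.10, adjusted p = 0.000178). Btg2, an antiproliferative cofactor of mRNA deadenylation, measured 49.7, 53.8 and 53.6 CPM against 83.6, 75.8 and 63.7 CPM, a 1.42-fold rise (log2 0.50, SE 0.11, adjusted p = 0.00182). Gadd45a, a growth arrest and DNA damage gene, had a low level, at 1.40, 1.02 and 1.31 CPM against 1.10, 0.34 and 1.004 CPM (27, 19 and 27 counts against 15, 5 and 18). Its groups overlapped, and a log2 difference of -0.60 (SE 0.43, adjusted p = 0.248) was not distinguishable from 0 at this depth. An antisense gene with at most 3 counts in a cell library, E230016M11Rik, covers 55.8% of its exon bases.

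Paired p53 motifs of these genes are shown on the strand of the gene, with the motif copies in capitals, 1 pair per gene. The search found 3 pairs for Ccng1, 2 each for Cdkn1a and Gadd45a, 5 for Zmat3 and 1 each for Btg2 and Plk2, and some of them share a copy. For Ccng1 and Gadd45a the pair nearest to the canonical start is shown, and for Cdkn1a the pair without a spacer, a choice made after the pairs were seen. Each of the following holds 1 mismatch. That of Ccng1 (chr11:40646289-40646308, minus strand) lies 160 bases before the canonical start and has no spacer. That of Gadd45a (chr6:67014844-67014867, minus strand) lies 465 bases before the start, with 4 bases between the copies. That of Btg2 (chr1:134009245-134009275, minus strand) lies 2402 bases before the start, with 11 bases between the copies. That of Plk2 (chr13:110531643-110531664, plus strand) lies in the part of exon 1 that is not coding, 638 bases after the start, with 2 bases between the copies.
Ccng1: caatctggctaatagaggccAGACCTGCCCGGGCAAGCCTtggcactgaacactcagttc
Gadd45a: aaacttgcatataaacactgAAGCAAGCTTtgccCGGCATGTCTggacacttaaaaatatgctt
Btg2: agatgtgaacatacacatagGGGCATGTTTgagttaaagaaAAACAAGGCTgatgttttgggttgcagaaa
Plk2: GGGCTAGCCCggACGCTTGTCC

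The wider growth arrest and antiproliferative families, a list of 15 tested genes that holds these 4, had 4 called higher and 6 lower (median log2 fold change -0.27). The share called was 66.7%, against 57.7% of all tested genes. Plk3, the closest relative of Plk2, rose from 5.91, 5.43 and 6.23 CPM to 12.7, 20.4 and 21.6 CPM (log2 1.64, SE 0.20, adjusted p = 3.29e-05). Gadd45b, a relative of Gadd45a, fell from 64.5 ± 5.05 to 29.2 ± 5.79 CPM (log2 -1.15, edgeR adjusted p = 3.33e-05). Btg3, a relative of Btg2 that was chosen after its values were seen, fell from 6.52 ± 0.940 to 2.74 ± 0.653 CPM (log2 -1.26, edgeR adjusted p = 0.000672), opposite to Btg2.

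The apoptosis gene Bbc3 and the RNA-binding gene Zmat3 fell. Bbc3 encodes PUMA, a BH3-only protein that neutralizes the antiapoptotic BCL2 proteins, and measured 81.5, 93.9 and 93.3 CPM in the controls against 29.4, 26.3 and 25.2 CPM with esculetin. The level with esculetin was 0.301 of the control (log2 -1.73, SE 0.10, adjusted p = 2.33e-07), and no library came near the other group. Zmat3, a zinc finger protein that binds RNA and is among the direct p53 targets, measured 444, 425 and 405 CPM against 176, 158 and 132 CPM. The level with esculetin was 0.366 of the control (log2 -1.45, SE 0.11, adjusted p = 1.15e-06). The pair shown is the only 1 of its 5 that matches at all 20 positions. It lies in intron 1 (chr3:32418480-32418499, minus strand), 1419 bases after the canonical start, with no spacer.
Zmat3: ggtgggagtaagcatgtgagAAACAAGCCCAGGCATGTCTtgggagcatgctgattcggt

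In the BCL2 family, a list of 13 tested genes that includes Bbc3, 4 rose and 4 fell (61.5% called, against 57.7% of all tested genes). Those with the smallest p-values after Bbc3 were antiapoptotic. Bcl2l1, the gene of BCL-XL, measured 28.9, 29.96 and 28.5 CPM in the controls and 95.8, 143 and 161 CPM with esculetin (log2 2.197, SE 0.16, adjusted p = 1.19e-06). Bcl2 rose from 9.62 ± 1.34 to 21.7 ± 2.10 CPM (log2 1.17, edgeR adjusted p = 3.64e-05), and Bcl2l2, the gene of BCL-W, from 20.8 ± 2.41 to 41.7 ± 3.62 CPM (log2 1.002, edgeR adjusted p = 3.70e-05).

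Beyond the 10 genes, 37 further p53 targets were tested in the cells. Of these, 8 rose, 17 fell and 12 were not called, and their median log2 fold change was -0.22. The share called was 67.6%, against 57.7% of all tested genes. Trp53inp2, an autophagy gene, had the smallest p-value and rose from 31.2, 35.4 and 33.4 CPM to 70.4, 76.1 and 81.7 CPM (log2 1.19, SE 0.10, adjusted p = 2.00e-06). The next 3 fell: Polh, a translesion DNA polymerase, from 82.4 ± 3.32 to 42.1 ± 1.25 CPM (log2 -0.97, edgeR adjusted p = 3.51e-06), Gtse1, a microtubule-binding protein of G2 phase, from 114 ± 3.79 to 44.1 ± 7.98 CPM (log2 -1.38, edgeR adjusted p = 3.66e-06), and Fdxr, the mitochondrial ferredoxin reductase, from 34.5 ± 1.33 to 14.3 ± 2.13 CPM (log2 -1.27, edgeR adjusted p = 1.01e-05). Bax and Pmaip1, proapoptotic targets chosen after their values were seen, were not called, with log2 differences of -0.18 (SE 0.09, edgeR adjusted p = 0.0917) and -0.22 (SE 0.15, edgeR adjusted p = 0.232).

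The mitotic genes fell beside these changes. Of 46 mitotic genes tested in the cells, 45 fell and 0 rose (97.8% called, against 57.7% of all tested genes). The list was compiled with earlier results of these data known, so this share is a description and not a test. Their median log2 fold change was -1.61, against -0.01 over all tested genes. Cdc20, the activator of the anaphase-promoting complex, measured 138, 155 and 147 CPM in the controls and 21.4, 21.3 and 17.0 CPM with esculetin (log2 -2.89, SE 0.11, adjusted p = 3.15e-08). Bub1b, a kinase of the spindle checkpoint, measured 199, 190 and 200 CPM against 46.3, 39.7 and 37.1 CPM (log2 -2.26, SE 0.10, adjusted p = 6.27e-08). Espl1, the separase, fell from 112 ± 7.23 to 25.8 ± 1.93 CPM (log2 -2.12, edgeR adjusted p = 8.13e-08), and Ccnb1, cyclin B1, from 105 ± 5.48 to 26.9 ± 1.40 CPM (log2 -1.96, edgeR adjusted p = 8.74e-08). The exception, Bub1, measured 138, 108 and 106 CPM against 125, 111 and 88.8 CPM, with overlapping groups (log2 -0.12, SE 0.13, adjusted p = 0.475).

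DNA replication genes were called in both directions. Of 25 DNA replication genes, 4 rose, 11 fell and 10 were not called, with a median log2 fold change of -0.15. The share called was 60%, against 57.7% of all tested genes. Lig1, a DNA ligase, fell from 86.9 ± 6.92 to 36.7 ± 4.01 CPM (log2 -1.24, edgeR adjusted p = 2.82e-06), Mcm7, a helicase subunit, from 110 ± 4.31 to 61.9 ± 6.50 CPM (log2 -0.84, edgeR adjusted p = 2.27e-05) and Cdt1, a licensing factor, from 80.1 ± 3.78 to 45.2 ± 4.22 CPM (log2 -0.83, edgeR adjusted p = 2.47e-05). Pcna, the sliding clamp, rose from 110 ± 3.84 to 216 ± 43.4 CPM (log2 0.97, edgeR adjusted p = 6.05e-05). The list of 17 cyclins and CDKs with their direct regulators shares Ccne1 and Ccne2 with the replication list and Ccnd1 with the further p53 targets. It shares Ccna2, Ccnb1, Ccnb2, Cdk1 and Cdc25c with the mitotic list, so these genes are counted in both. Of the 17, 3 rose and 12 fell (88.2% called, against 57.7% of all tested genes). Those with the smallest p-values beside Ccnb1 were Ccnb2 (log2 -2.70, edgeR adjusted p = 3.49e-07), the kinase gene Wee1 (log2 -1.64, edgeR adjusted p = 5.52e-07) and Ccna2 (log2 -1.58, edgeR adjusted p = 6.20e-07). The 3 that rose were Ccnd1 (log2 0.91), Cdk6 (log2 0.89) and Ccne2 (log2 1.08), while Ccnd3 (log2 -0.29), Cdk4 (log2 -0.41), Cdk2 (log2 -0.54) and Cdc25a (log2 -0.66) were among those that fell. These 7 were named after their values were seen.

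**Figure D2:**
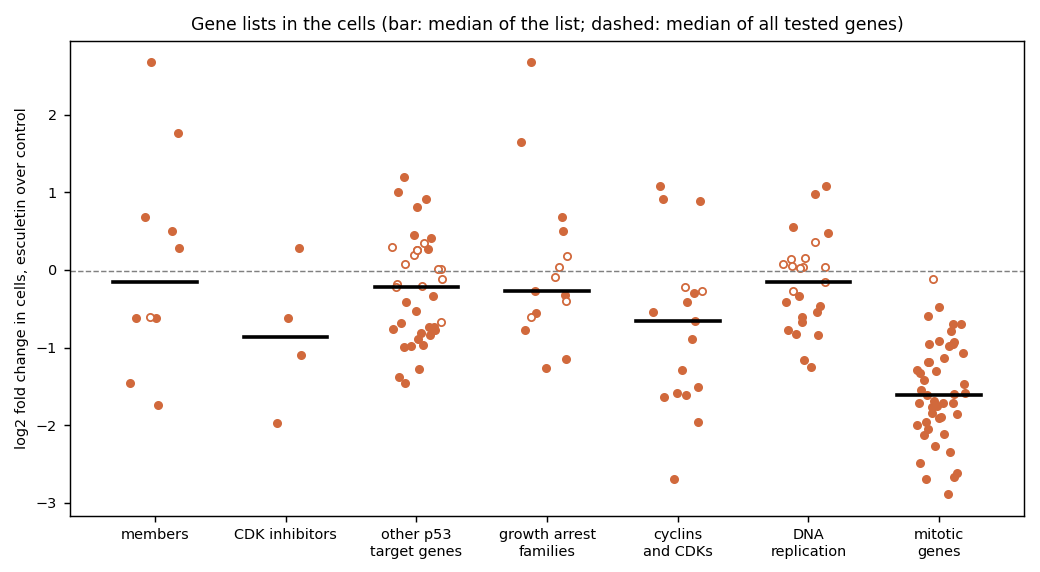
Log2 fold change in the cells (y axis, esculetin over control) of each tested gene of 7 lists; filled points were called, open points were not, black bars are list medians and the dashed line is the median of all tested genes. The 10 genes and the other p53 targets spread on both sides of 0, while all 46 mitotic genes lie below 0 with a median of -1.61.

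In the liver, 0 of the 10 genes were called by edgeR among 12813 tested genes, a rule that called 0.0859% of all of them, 0.0312% as higher and 0.0546% as lower. At an unadjusted p under 0.05, 4 of the 10 passed, 1 higher and 3 lower, against 8.37% of all tested genes. The groups did not overlap for 3 genes, all lower with esculetin, against 7.95% of all tested genes that were lower, 6.52% that were higher and 14.5% in either direction. Other settings called more genes: the limma-voom criterion 3.89% of all tested genes and 4 of the 10, edgeR without the filter 1.52% and 3 of the 10 (Cdkn1a, Plk2 and Bbc3), DESeq2 0.765% and 2 (Cdkn1a and Plk2), and edgeR with a block for the replicate number 0.960% and the same 2.

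Cdkn1a in the liver measured 13.9, 17.9 and 22.8 CPM with vehicle and 22.1, 29.7 and 51.1 CPM with esculetin. The lowest esculetin library was below the highest control, and the third esculetin library was far above the other two. The log2 difference was 0.91 (SE 0.27), with an unadjusted edgeR p of 0.00526 and an adjusted p of 0.334, while DESeq2 gave an adjusted p of 0.0457 and all alternatives ran from 2.46e-06 to 0.994. Without the third esculetin library the log2 difference was 0.49, and without the first it was 1.14. Plk2 measured 12.9, 15.0 and 13.9 CPM with vehicle and 6.43, 8.12 and 8.02 CPM with esculetin. Its groups did not overlap, and its log2 difference of -0.89 (SE 0.17) had an adjusted p of 0.0839 with edgeR and 0.00403 with DESeq2, in a range of 0.000708 to 0.460 over the alternatives. Bbc3 measured 10.8, 13.03 and 11.7 CPM against 6.27, 8.64 and 6.86 CPM, also without overlap (log2 -0.71, SE 0.18, edgeR adjusted p = 0.248). Gadd45a measured 1.84, 1.23 and 1.28 CPM against 0.65, 0.71 and 0.71 CPM, on 22 to 30 counts against 11 to 12 (log2 -1.06, SE 0.37, edgeR adjusted p = 0.473).

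The other 6 genes had overlapping groups in the liver and log2 differences from -0.45 for Btg2 to 0.34 for Zmat3. Trp53 measured 22.7, 21.8 and 24.7 CPM against 20.5, 22.8 and 22.1 CPM (log2 -0.08, SE 0.13). Mdm2 measured 19.4, 13.4 and 10.3 CPM against 13.1, 11.6 and 12.0 CPM (log2 -0.23, SE 0.21), and without the first control its log2 difference turned to 0.04. Cdkn1b measured 16.6, 15.8 and 11.1 CPM against 12.1, 13.8 and 11.5 CPM (log2 -0.22, SE 0.18), with log2 differences from -0.40 without the third control to -0.11 without the first. Every one of these groups overlapped. Ccng1 measured 23.7, 15.1 and 21.03 CPM against 23.7, 19.7 and 22.1 CPM (log2 0.13, SE 0.17), and without the second control its log2 difference turned to -0.04. Btg2 measured 15.0, 24.7 and 17.2 CPM against 18.1, 11.9 and 11.6 CPM (SE 0.22), and its log2 difference was -0.21 without the second control and -0.70 without the first esculetin library. Zmat3 measured 6.82, 7.70 and 5.30 CPM against 8.72, 7.40 and 8.99 CPM (SE 0.19), and its log2 difference was 0.19 without the third control. None of these 6 reached an unadjusted p under 0.05.

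**Figure D3:**
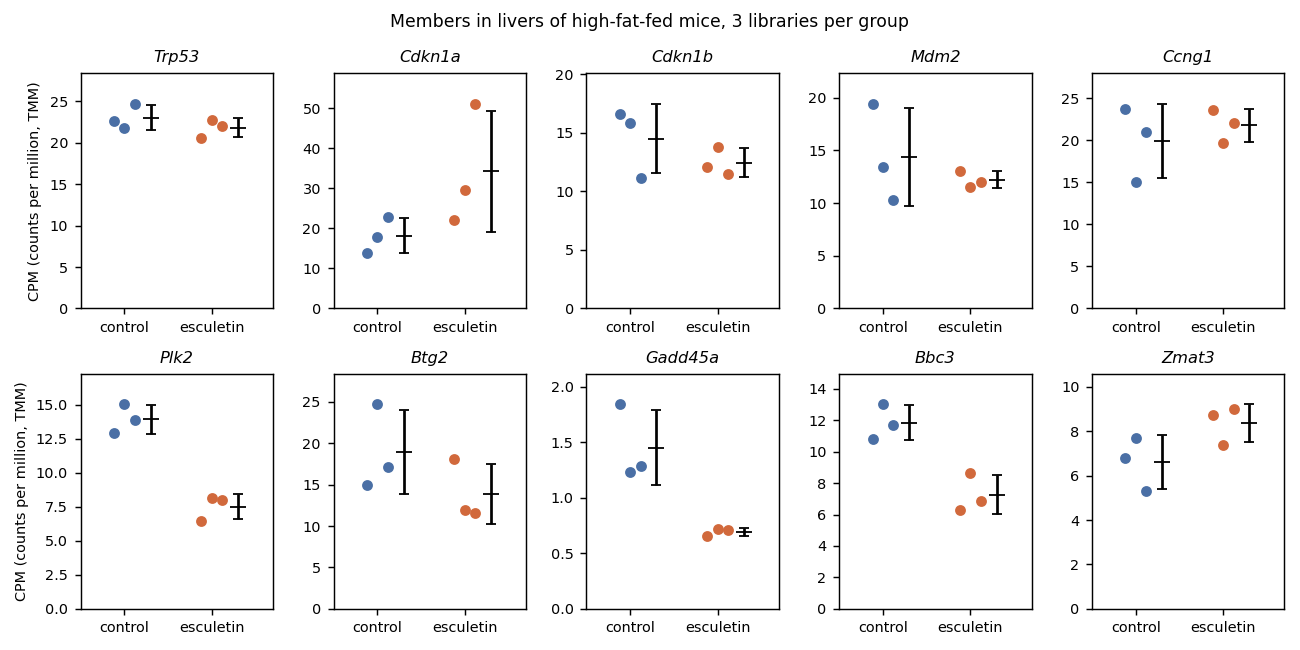
CPM (y axis, from 0, scaled by trimmed mean of M-values) of the 10 genes in the liver libraries, 3 controls in blue and 3 esculetin libraries in orange; the black marks give mean ± SD. The groups are apart for Plk2, Bbc3 and Gadd45a, and the third Cdkn1a library with esculetin, at 51.1 CPM, lies over the others.

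No gene of the other lists was called in the liver by edgeR either. Of 34 further p53 targets tested there, 4 had an unadjusted edgeR p under 0.05, against 8.37% of all tested genes, and they went in both directions. Ddit4, a stress inhibitor of mTOR, measured 7.43 ± 3.19 CPM against 17.0 ± 5.13 CPM (log2 1.19, edgeR adjusted p = 0.244), and Trp53inp2 was also higher (log2 0.30). Ephx1 (log2 -0.55) and Gdf15 (log2 -0.77) were lower. These genes were named after their values were seen. Of the 46 mitotic genes, only 25 passed the filter on low counts in the liver. Of these 25, 19 lay below 0, with a median log2 difference of -0.41 against -0.02 over all tested genes. Their levels were near 1 CPM: Ccnb1 measured 1.35, 0.69 and 2.33 CPM with vehicle and 0.22, 0.26 and 0.58 CPM with esculetin (edgeR adjusted p = 0.309). At such levels a gene can pass the filter through its higher group alone, so no conclusion is drawn from this lean. Wee1 measured 3.94 ± 0.465 CPM against 1.74 ± 0.470 CPM (log2 -1.17, edgeR adjusted p = 0.213). Of the other CDK inhibitors tested in the liver, Cdkn1c (log2 -0.33), Cdkn2c (log2 0.05) and Cdkn2d (log2 0.08) had overlapping groups.

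The effect of esculetin was then compared between the systems in a model of all 12 libraries, as the log2 fold change in the cells minus that in the liver. Dose, time, vehicle and lipid exposure differ along with the system and cannot be told apart from it. The difference was called for 6 of the 10 genes, 3 with a higher effect in the cells and 3 with a lower one, against 27.1% of all 15709 genes tested (13.4% higher and 13.7% lower). It was 3.52 (SE 0.23, edgeR adjusted p = 1.42e-07) for Plk2, which rose in the cells and had its groups apart in the other direction in the liver. It was 1.96 (SE 0.23, edgeR adjusted p = 1.76e-05) for Mdm2 and 0.91 (SE 0.26, edgeR adjusted p = 0.0169) for Btg2. The last of these missed the threshold without the second liver control (edgeR adjusted p = 0.0508) or the third liver esculetin library (adjusted p = 0.0505). The effect was lower in the cells for Zmat3 (-1.83, edgeR adjusted p = 1.23e-05), Bbc3 (-1.06, edgeR adjusted p = 0.000887) and Trp53 (-0.57, edgeR adjusted p = 0.00852).

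For the remaining 4 genes a difference between the systems was not called. It was -0.66 (SE 0.32, edgeR adjusted p = 0.141) for Cdkn1a, whose log2 difference was above 0 in both systems. For this gene it was called without the filter (-0.67, edgeR adjusted p = 0.00589) and with the replicate block (-0.62, edgeR adjusted p = 0.0182). The same held without the first liver esculetin library (-0.83, edgeR adjusted p = 0.0442). The difference was 0.51 (SE 0.21, edgeR adjusted p = 0.0804) for Ccng1. It was called with the replicate block (0.50, edgeR adjusted p = 0.0259) and without the second liver control (0.73, edgeR adjusted p = 0.00946). The difference was -0.44 (SE 0.25, edgeR adjusted p = 0.204) for Cdkn1b and 0.42 (SE 0.58, edgeR adjusted p = 0.665) for Gadd45a. These standard errors leave room for differences of the size of the smallest that was called, -0.57 for Trp53.

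**Figure D4:**
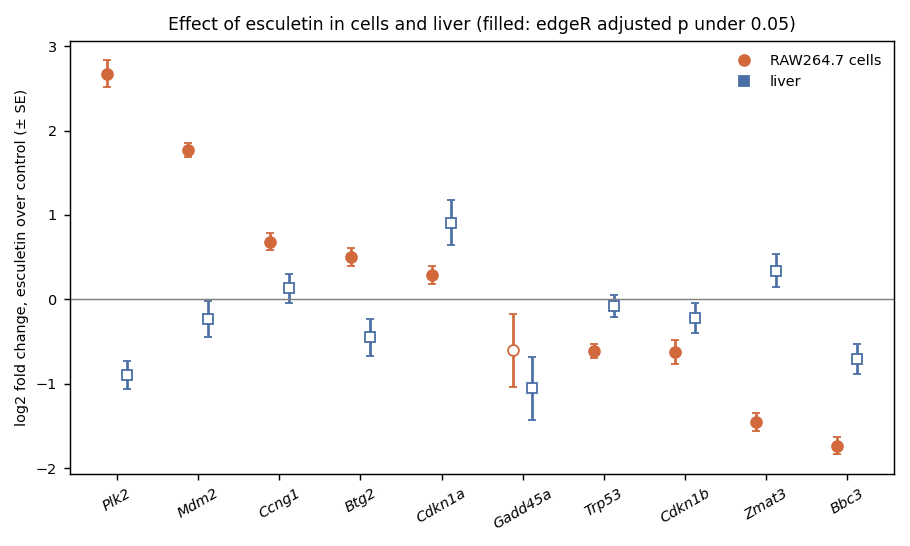
Log2 fold change, esculetin over control, ± SE (y axis) of the 10 genes in the cells (orange circles) and the liver (blue squares), ordered by the value in the cells; filled symbols had an edgeR adjusted p under 0.05. All filled symbols are from the cells, and Plk2 shows the widest gap, from 2.67 in the cells to -0.89 in the liver.

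Levels between genes were compared per length, as TPM, the count per length of merged exons scaled to a total of 1000000 in each library. In the control cells Cdkn1a was the most abundant of the 10 (mean 622 TPM, range 591 to 645) and Gadd45a the least (mean 2.92 TPM). Between them came Ccng1 (263 TPM), Cdkn1b (160 TPM), Zmat3 (154 TPM), Mdm2 (103 TPM), Trp53 (82.0 TPM), Bbc3 (77.7 TPM), Btg2 (34.7 TPM) and Plk2 (4.55 TPM). The ranges of Cdkn1b and Zmat3, and those of Trp53 and Bbc3, overlapped. With esculetin Cdkn1a (734 TPM) and Ccng1 (408 TPM) kept the first places and Mdm2 (337 TPM) followed, while Plk2 (28.0 TPM) and Bbc3 (22.6 TPM) had overlapping ranges. In the liver controls the levels ran from 15.6 TPM for Ccng1 to 1.99 TPM for Zmat3, and the ranges of nearly all neighbours overlapped. The order of several genes changed when the length of the canonical transcript was used, but Cdkn1a stayed first and Gadd45a last in both cell groups.

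Sequence around the gene starts was described for the same lists, with no test. The p53 motif is part of the reason why these genes are known as targets, so its presence is not a finding. A single 10-base p53 motif was in 5 of the 12 RefSeq promoter windows found for 9 of the 10 genes (41.7%), against 8.36% of all 32851 windows. Paired p53 motifs with at most 1 mismatch lay within 5000 bases of the start for 6 of the 10 genes, against 31.5% of all tested protein-coding genes, and pairs without a mismatch for 2, Cdkn1a (another pair than the one shown, with a spacer of 12 bases) and Zmat3, against 3.38%. Of the 6 genes with a pair, Cdkn1a, Ccng1, Plk2 and Btg2 rose in the cells, Zmat3 fell and Gadd45a was not called.

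The CHR element (TTTGAA or TTCGAA), through which the DREAM complex is known to silence mitotic genes when p21 is active, was in 0 of the 12 windows of the 10 genes. It was in 31 of 41 windows of the mitotic genes (75.6%), against 19.2% of all windows and 20% of those of the replication genes. The CCAAT box, often found beside it, was in 58.3% of the windows of the 10 genes and 78% of those of the mitotic genes, against 37.4% of all. The C/EBP element (TTGCNNAA) was searched because C/EBPβ is the factor the study is about, and was in 1 of the 12 windows, that of Gadd45a (8.33%), in 0 of the 41 mitotic windows and in 10.8% of all. All motifs were searched on both strands, and a match is a run of letters and not a proven binding site. The window of Cdc20 (RefSeq GRCm38.p6, chr4:118437294-118437593, minus strand) is shown as an example of the mitotic promoters, since Cdc20 had their smallest p-value, with the CHR element in capitals.
Cdc20 promoter: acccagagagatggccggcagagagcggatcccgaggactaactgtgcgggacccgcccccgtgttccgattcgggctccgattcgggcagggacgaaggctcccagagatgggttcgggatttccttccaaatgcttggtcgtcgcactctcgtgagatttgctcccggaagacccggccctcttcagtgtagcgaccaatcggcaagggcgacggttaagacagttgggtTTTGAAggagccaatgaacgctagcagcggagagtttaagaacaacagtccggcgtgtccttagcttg

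**Figure D5:**
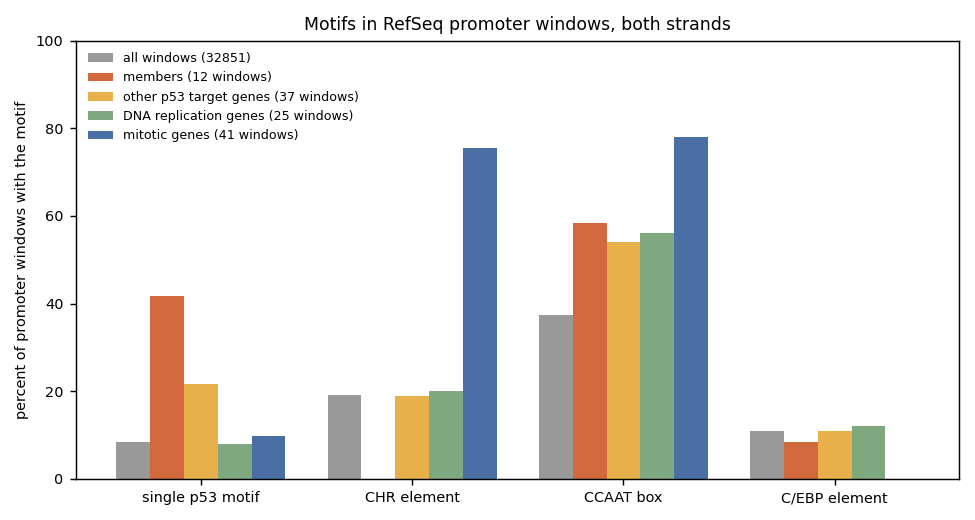
Percent of RefSeq promoter windows (y axis) that hold each motif on either strand, for all windows and for 4 gene lists, with the number of windows in the key. The CHR element is in 75.6% of the mitotic windows and in none of the 12 windows of the 10 genes, where the single p53 motif is in 41.7%.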

How the data were processed

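The deposited values were raw counts per Ensembl gene, in separate liver and cell tables. The authors aligned 150-base paired reads to GRCm39 with HISAT2 2.2.1 and made the counts with featureCounts; the submitters' processing notes also list mm10. Strand setting, multi-mapped reads and annotation release are not given in the sources used here, so a gene and an antisense gene over it cannot be told apart.

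Counts were tested per table with edgeR 4.0.16 in R 4.3.3 (filterByExpr, trimmed mean of M-values, quasi-likelihood F test, two-sided, Benjamini-Hochberg over all tested genes, threshold 0.05), and the difference between the systems in a model of 4 groups. The SE was derived from the fold change and F. CPM is given as mean ± SD over 3 libraries. DESeq2 1.42.0, limma 3.58.1 with the study's criterion (unadjusted p-value under 0.05, fold over 1.5), other scalings and filters, a block for the replicate number and leaving out each library were alternatives. Symbols and lengths came from GENCODE on GRCm39, which held 54749 of the 55357 identifiers. Tests were checked on simulated data, and no 2 libraries agreed within sampling noise.

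The 10 genes and the lists were chosen with earlier results of these data known, and lists were compiled from general knowledge. Named were the 10 genes, all CDK inhibitors, up to 4 genes per list with the smallest p-value in the cells, and the 3 genes nearest in profile to Cdkn1a, Cdkn1b and Mdm2; others are marked where they appear.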

Additional observations from a re-analysis of the deposited data

Results flagged for a closer look

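For 6 of the 10 genes the effect of esculetin differed between the cells and the liver by the interaction test of edgeR over all 12 libraries, against 27.1% of all 15709 genes tested. The log2 effect in the cells minus that in the liver was 3.52 for Plk2 (3 of 3 esculetin libraries above all controls in the cells, 3 of 3 below all controls in the liver), 1.96 for Mdm2 and 0.91 for Btg2. The call of Btg2 was lost without the second liver control (edgeR adjusted p = 0.0508) or the third liver esculetin library (edgeR adjusted p = 0.0505). It was -1.83 for Zmat3, -1.06 for Bbc3 and -0.57 for Trp53. Bbc3 had its esculetin libraries below the controls in both systems, with a log2 effect of -1.73 in the cells and -0.71 in the liver.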

How the results depend on the processing

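The results that answer a comparison, mostly counts of called genes, gave 222 pairs of a result and an alternative setting. In 201 of these pairs the result was rated unchanged, for a count within 1.5 times of that reported. A count of 0 that stayed 0 was taken as unchanged, as for every liver list when 1 library was left out. Such cases say little about how firm a result is. In the cells, the study's criterion gave 3 of the 10 genes and 4 other p53 targets as higher, in place of 5 and 8. It called 38.0% of all tested genes in either direction. Leaving out 1 library gave 4 to 5 of the 10 and 5 to 10 other targets as higher, with 5 without the second control or the second esculetin library. In the liver, 0 of the 10 were called by edgeR, but 1 was higher without the filter, with DESeq2, by the study's criterion and with the replicate block (Cdkn1a), and 2, 1, 3 and 1, in the same order, were lower (Plk2 in each). In that order, those settings called 1.52%, 0.765%, 3.89% and 0.960% of all tested genes in either direction. Other p53 targets gave 1 higher under each of these and 1 lower without the filter and with DESeq2, and mitotic genes gave 1 lower without the filter and by the study's criterion. The cause was not tested. Leaving out 1 library, the log2 difference of liver Mdm2 ran from -0.442 to 0.0447, reversing without the first control, and that of Ccng1 from -0.0365 to 0.280, reversing without the second control. On the forward strand only, the CCAAT box was in 51.2% of the mitotic windows, 33.3% of those of the 10 genes and 21.1% of all, and the CHR element in 61% of the mitotic windows and 11.6% of all. Of 470 pairs of a single-gene value and an alternative setting, 441 kept direction and side of the threshold.

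The labels do not tie replicate numbers to shared animals or cultures: same-number correlations of deviations were 0.165, -0.0298 and 0.0796 in the cells and 0.140, -0.00529 and 0.103 in the liver, not every library correlated best with its own number, and no pairing was assumed. The block changed no count in the cells beyond 1.5 times. Depth limits Gadd45a and the liver mitotic genes, which rest on few counts.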

Other observations

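Antisense genes overlap several of the 10 genes, and without strand their reads cannot be told apart. Dino, an RNA antisense to Cdkn1a that shares 504 bases (8.34%) of its exons, had 42, 31 and 56 counts in the control cells and 44, 53 and 82 with esculetin (log2 0.80, SE 0.26, edgeR adjusted p = 0.0229). E230016M11Rik covers 55.8% of the exon bases of Gadd45a and had 0 to 3 counts in each cell library and 1 to 9 in each liver library.

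The genes whose profile over the 6 cell libraries was nearest to that of Cdkn1a were Unc45a (log2 fold change 0.29), Ostf1 (0.27) and Prkar1a (0.32). For Cdkn1b they were Agbl5 (-0.65), Rap2a (-0.62) and 2610005L07Rik (-0.63), and for Mdm2 they were Ptpn22 (1.80), Gsap (1.76) and Cpne2 (1.80). Nearness was the Euclidean distance of log2 CPM less its control mean, which was 0.0681 to 0.155 for these 9 genes, and is a description over 6 libraries.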
